A study of Meriones unguiculatus with 18 samples.

Results

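Clu, the gene of clusterin, was followed in livers of Mongolian gerbils (Meriones unguiculatus), all males, kept on a high-fat diet (HFD) or a normal diet (ND). It was found as the row of the deposited expression table whose name is Clu in any letter case, and exactly 1 of 13172 assembled transcripts (unigenes) carried it, TRINITY_DN31125_c0_g1, among 3767 with a gene name. The gene was chosen by its measured level in HFD livers, in particular at 16 weeks, so its values are described here without a test. The 4 groups used are HFD and ND livers after 4 weeks (HFD 4W and ND 4W) and after 16 weeks (HFD 16W and ND 16W), with 3 libraries each. Per the labels, the HFD was 80.5% ordinary feed with egg yolk powder (10%), lard bile (7%), cholesterol (2%) and a bile salt (0.5%), ND animals ate ordinary feed, and no genetic change of the animals is named. The design text speaks of 18 gerbils, 3 in each group, and the treatment protocol of 36, with 6 in each. The sources used here do not say whether 1 library held 1 animal or a pool, so the spread below is that between libraries.

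Clusterin, also called apolipoprotein J, is a glycoprotein that hepatocytes make and secrete. It binds unfolding proteins outside cells and keeps them from aggregating, it travels on high-density lipoproteins, and it blocks the assembly of the membrane attack complex, the pore that ends the complement cascade. Bound cargo is taken up through receptors of the LDL receptor family such as megalin and VLDLR. In rodent tissues its mRNA is known to rise with injury, and liver cells other than hepatocytes can express it as well. In bulk liver RNA, fewer cells of a type and less RNA per cell cannot be told apart, and the same holds for more of either.

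The values are normalized expression levels that share 1 set of sorted values over all libraries, as quantile normalization gives, with column sums between 157561 and 158005. A level is therefore set by the rank of the unigene in its library, and the top 3 levels are always 28764, 8090 and 5760. The depth of each library is unknown. The unit that the authors started from is also unknown, so a rank of one gene above another may carry transcript length, and comparisons below are mainly of 1 gene across libraries. Values of the 8-week livers (6 libraries) could not be paired with the gene names (correlations of 0.00114 to 0.0320 with the other 12 libraries in 72 pairs, against 0.771 to 0.858 within groups) and were left out. In HFD libraries 2053 to 3012 unigenes stood at the lowest value, called not detected here, against 3910 to 5273 in ND libraries. Of all unigenes, 157 were detected only in both HFD libraries numbered 1, 380 only in the other 4 HFD libraries and 166 only in the 6 ND libraries. These sets of libraries run with diet and cannot be told apart from it. Albumin (ALB), the main plasma protein of hepatocytes, ranked 1 to 3 in all 12 libraries, so the defining transcript of hepatocytes was near the top throughout.

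At 16 weeks Clu reached a level of 28764 in HFD 16W libraries 1 and 2 and 8090 in HFD 16W library 3, against 496, 504 and 1335 in the ND 16W libraries. It was thus the highest of all unigenes in 2 HFD 16W libraries and the second in the other one, where ALB alone stood above it. In ND 16W libraries its ranks were 39, 38 and 11. The lowest HFD 16W library lay above the highest ND 16W library by 2.60 on the log2(level + 1) scale. The group levels were 21872 ± 11936 in HFD 16W and 778 ± 482 in ND 16W (SD, n = 3 each), and the mean difference was 4.76 on the log2(level + 1) scale (SE 0.57). Rank 1 is a ceiling of the normalization, so a further increase of Clu in HFD 16W libraries 1 and 2 could not show in these values.

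After 4 weeks the difference was smaller and the groups again did not overlap. Clu had levels of 1073, 875 and 1134 in HFD 4W libraries, at ranks 15, 20 and 14, against 445, 528 and 504 in ND 4W libraries, at ranks 44, 36 and 38. The mean difference was 1.05 on the log2 scale (SE 0.57). This SE comes from a fit in which all 12 libraries share 1 estimate of the spread. Within each 4-week group the libraries were close together, with 1028 ± 135 in HFD 4W and 492 ± 42.8 in ND 4W (SD, n = 3 each). The gap between the lowest HFD 4W and the highest ND 4W library was 0.73 on the log2 scale.

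Over time Clu moved apart between the diets. In HFD livers the level at 16 weeks lay above that at 4 weeks by 4.20 on the log2 scale (SE 0.57), with a gap of 2.83 between the groups. In ND livers the difference of 16 from 4 weeks was 0.50 (SE 0.57), and the groups overlapped: ND 16W libraries 1 and 2 were at 496 and 504, inside the ND 4W range of 445 to 528, and ND 16W library 3 was at 1335. That library also reached above all HFD 4W libraries. The order of the groups by median rank was HFD 16W (1), HFD 4W (15), and ND 16W and ND 4W (38 each). Of the neighbours in that order, HFD 4W and ND 16W overlapped in level, and so did ND 16W and ND 4W. The diet difference at 16 weeks exceeded that at 4 weeks by 3.71 (SE 0.81) on the log2 scale. Taken on ranks alone, as log2 of the rank, the diet differences were 4.33 at 16 weeks and 1.28 at 4 weeks.

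**Figure D1:**
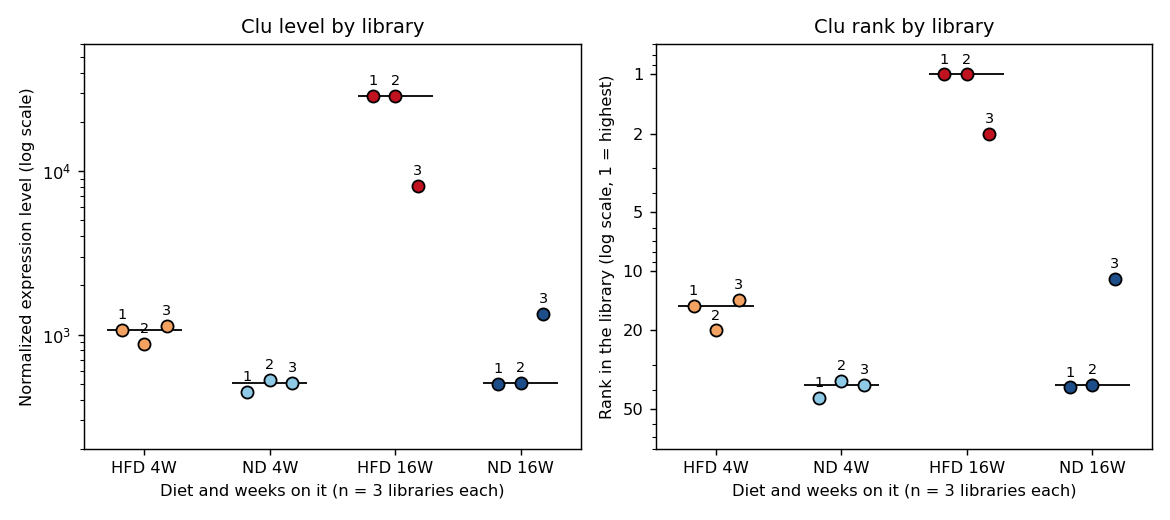
Level (left, log scale, normalized expression level) and rank (right, log scale, 1 at the top) of Clu in each library, numbered by replicate, with the group median as a line (n = 3 libraries each). HFD 16W libraries 1 and 2 share the top level of 28764, library 3 has 8090, and the ND 16W library numbered 3, at 1335, stands above its group and above HFD 4W.

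The share of the summed levels restates the level in another unit, since the column sums are nearly equal. The top levels are fixed by the normalization, so neither this share nor the ratio to ALB below is a measured share of RNA. Clu took 18.2%, 18.2% and 5.12% of the summed level of the HFD 16W libraries, against 0.315%, 0.320% and 0.847% of that of the ND 16W libraries. In HFD 4W libraries it took 0.680%, 0.554% and 0.718%, against 0.282%, 0.335% and 0.320% in ND 4W libraries. Set against ALB in the same library, Clu was at 3.56, 4.99 and 0.281 times the ALB level in HFD 16W and at 0.0172, 0.0175 and 0.0464 times in ND 16W. Clu stood above ALB in HFD 16W libraries 1 and 2 alone of the 12 libraries, and there ALB itself was at rank 2 and 3. In HFD 16W library 3 ALB held rank 1 and Clu rank 2, which is 1 difference and not a pair of them, since only 1 unigene can take the top level.

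The rise in rank at 16 weeks passed other liver genes. In both ND 16W libraries 1 and 2, 32 unigenes (29 of them named) lay above Clu, and 10 of the 32 also did so in ND 16W library 3. In the 3 HFD 16W libraries 14, 10 and 19 of the 32 were among the first 50 ranks. The 32 were picked by their ND 16W ranks, so a lower rank in HFD 16W is partly built into that choice, as it is for the ND genes named next. Among the genes of highest mean rank in ND 16W, Hpd, an enzyme of tyrosine breakdown, had ranks 76, 150 and 49 in HFD 16W and 6, 11 and 10 in ND 16W. Cyp3a11, a cytochrome P450 of drug metabolism, had ranks 87, 123 and 68 in HFD 16W and 7, 10 and 8 in ND 16W. These genes stood lower in every HFD 16W library than in any ND 16W library, and they were not alone in that. Ass1 had ranks 23, 60 and 29 in HFD 16W and 3, 8 and 5 in ND 16W. Tat had 16, 74 and 19 in HFD 16W and 13, 9 and 7 in ND 16W. The unnamed TRINITY_DN34104_c1_g1 had 19, 23 and 10 in HFD 16W and 8, 6 and 3 in ND 16W. Some other genes of the first ranks overlapped between the diets. Gstm2, a glutathione transferase, had ranks 3, 6 and 3 in HFD 16W and 10, 2 and 6 in ND 16W, and Fgg, the gamma chain of fibrinogen, had 5, 12 and 5 in HFD 16W and 14, 3 and 2 in ND 16W. Of the 10 unigenes of highest mean rank in HFD 16W, 4 were also among those of ND 16W.

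Clu was not the only unigene that climbed into the first ranks. The row named ACTG2, after a smooth muscle actin, had ranks 7, 9 and 8 in HFD 16W and 88, 115 and 132 in ND 16W. Gpnmb, a glycoprotein of lipid-laden macrophages, had ranks 10, 10 and 12 in HFD 16W and 5777, 1296 and 1175 in ND 16W. The unnamed TRINITY_DN32300_c0_g1 had ranks 6, 7 and 9 in HFD 16W and 819, 620 and 833 in ND 16W. These 3 came from lower ranks in ND livers than Clu did, and Gpnmb and TRINITY_DN32300_c0_g1 from far lower ones.

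**Figure D2:**
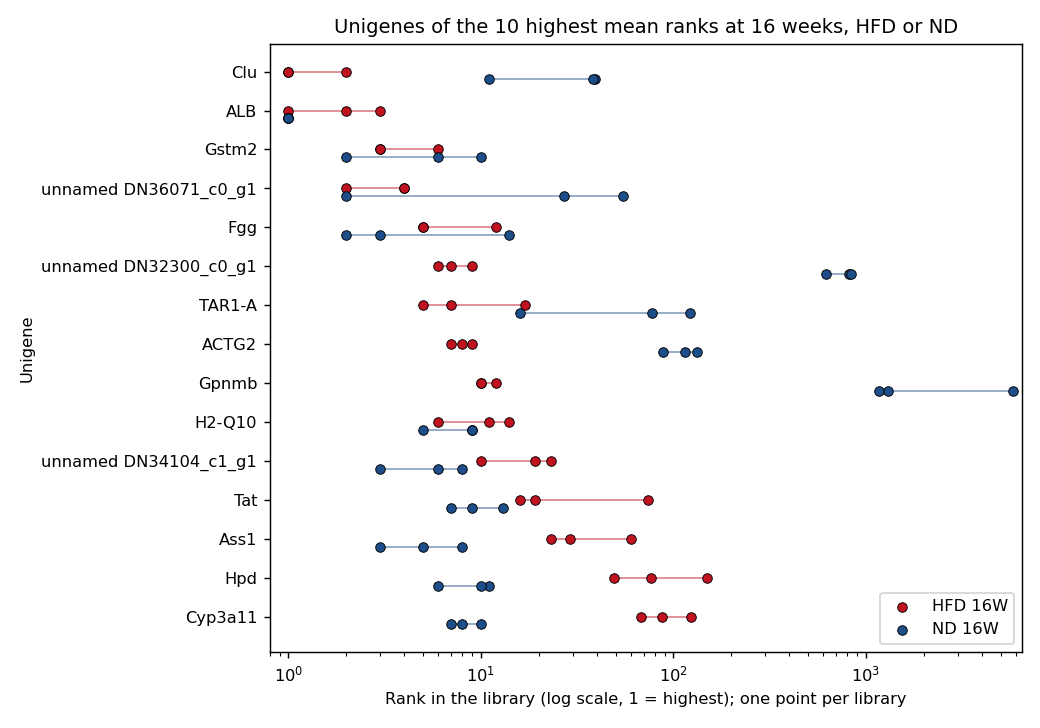
Ranks in the HFD 16W and ND 16W libraries (x axis, log scale, 1 is the highest, 1 point per library, lines join the lowest and highest rank of a group) of the unigenes with the 10 highest mean ranks in either group, 1 of them left out. Clu had ranks 1, 1 and 2 in HFD 16W and 39, 38 and 11 in ND 16W, and Gpnmb had 10, 10 and 12 in HFD 16W and 5777, 1296 and 1175 in ND 16W.

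Against all 9487 unigenes with a mean level of at least 1, 12 (10 of them named) had a larger log2 difference at 16 weeks than Clu. They included Gpnmb (7.81), Col1a1, a chain of fibrillar collagen (7.52), and Des, the intermediate filament desmin (5.47). None of these 12 had an ND 16W mean above 19.1 or an HFD 16W mean above 2072, against means of 21872 in HFD 16W and 778 in ND 16W for Clu. At 4 weeks the difference of Clu stood lower in that order, with 1149 unigenes above it, 292 of them named. The median difference over all 9487 unigenes was -0.12 at 16 weeks and -0.03 at 4 weeks.

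Over the 12 libraries, 2975 other named unigenes with a mean of at least 1 were ranked by the Pearson correlation of their log2(level + 1) with that of Clu. The correlations describe these libraries, which share 1 normalization and fall into an HFD 16W cluster and a rest, and they carry no p. The median correlation was 0.06. It was at least 0.9 for 237 unigenes (7.97%) and at most -0.9 for 134 (4.50%), so a high value here was common.

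The 15 most alike had correlations of 0.966 to 0.983. In order they were Itpr3, GNB1, Tpm3, PRNP, RAC1, ARPC5, Ptx3, Sdcbp, PKM, Emp3, Sytl2, Kdelr3, Fam57a, Pmp22 and S100a10. Itpr3 encodes a calcium channel of the endoplasmic reticulum, and its level was 35.7, 37.3 and 17.2 in HFD 16W and 2.03, 1.04 and 2.44 in ND 16W. PRNP, the prion protein, had levels of 93.2, 152 and 53.0 in HFD 16W and 4.32, 1.38 and 3.80 in ND 16W. As for Clu, HFD 16W library 3 was the lowest of its group in both genes. S100a10, the partner of annexin A2, had levels of 215, 267 and 123 in HFD 16W and 8.82, 23.6 and 22.1 in ND 16W. PKM, a pyruvate kinase of the kind that adult hepatocytes use little, had levels of 119, 229 and 110 in HFD 16W and 7.39, 10.9 and 11.6 in ND 16W. In all 4 genes the groups did not overlap.

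The smallest 16-week difference of the 15 was that of RAC1, a small GTPase that acts on actin. RAC1 had levels of 84.2, 75.9 and 62.1 in HFD 16W and 32.4, 31.4 and 31.6 in ND 16W. Ptx3, a long pentraxin of innate immunity that binds complement proteins, was detected in 7 libraries and had levels of 16.5, 25.7 and 18.6 in HFD 16W and 0.0733, 0.0400 and 1.19 in ND 16W. Over the 15, the log2 differences at 16 weeks ran between 1.18 and 4.55 and those at 4 weeks between 0.16 and 1.15. In 14 of the 15, both HFD 16W libraries 1 and 2 lay above library 3, as they did for Clu. The same order held for 503 of the 1092 named unigenes that were detected in all 12 libraries and had a positive difference at 16 weeks. The 15 were picked by likeness to Clu over these same libraries, so this order is partly built into that choice. The counts are therefore not an independent comparison.

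The 10 most opposed had correlations of -0.979 to -0.965. In order, 9 of them were ACOT1, Hsd3b, Nr1i3, SLC22A9, SAR1B, Cyp2d4, Acsm1, RGL2 and Cyp2j6. Nr1i3 encodes the nuclear receptor CAR, which drives drug-metabolising genes in hepatocytes, and its level was 13.5, 7.30 and 25.4 in HFD 16W and 298, 229 and 237 in ND 16W. At 4 weeks Nr1i3 was at 335, 314 and 255 in HFD and 369, 278 and 298 in ND, where the groups overlapped. ACOT1, an acyl-CoA thioesterase, had levels of 10.7, 6.86 and 14.5 in HFD 16W and 70.7, 56.2 and 54.1 in ND 16W. Acsm1, which activates medium-chain fatty acids, had levels of 17.6, 9.58 and 30.4 in HFD 16W and 240, 226 and 232 in ND 16W. In all 3 genes HFD 16W library 3 was the highest of its group, where Clu was the lowest, which is again partly built into the choice of these genes. SAR1B, a GTPase of the coats that carry secretory cargo out of the endoplasmic reticulum, had levels of 27.7, 19.6 and 36.3 in HFD 16W and 100, 86.5 and 87.5 in ND 16W.

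These likenesses rest on the HFD 16W libraries. Without them, over the other 9 libraries, the correlations of the 15 ran between 0.34 and 0.84 and those of the 10 opposed genes between -0.81 and -0.28. By Spearman's rho over the 12 libraries the 15 had values of 0.62 to 0.92, and only 1 of them was among the 15 highest by that measure, which KCTD12 led with 0.944. Over the 6 HFD libraries alone 2 of the 15 were among the 15 highest, led by Csgalnact2 with 0.999. Over the 9 libraries without HFD 16W, 1 was, and Rgl3 led with 0.978.

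**Figure D3:**
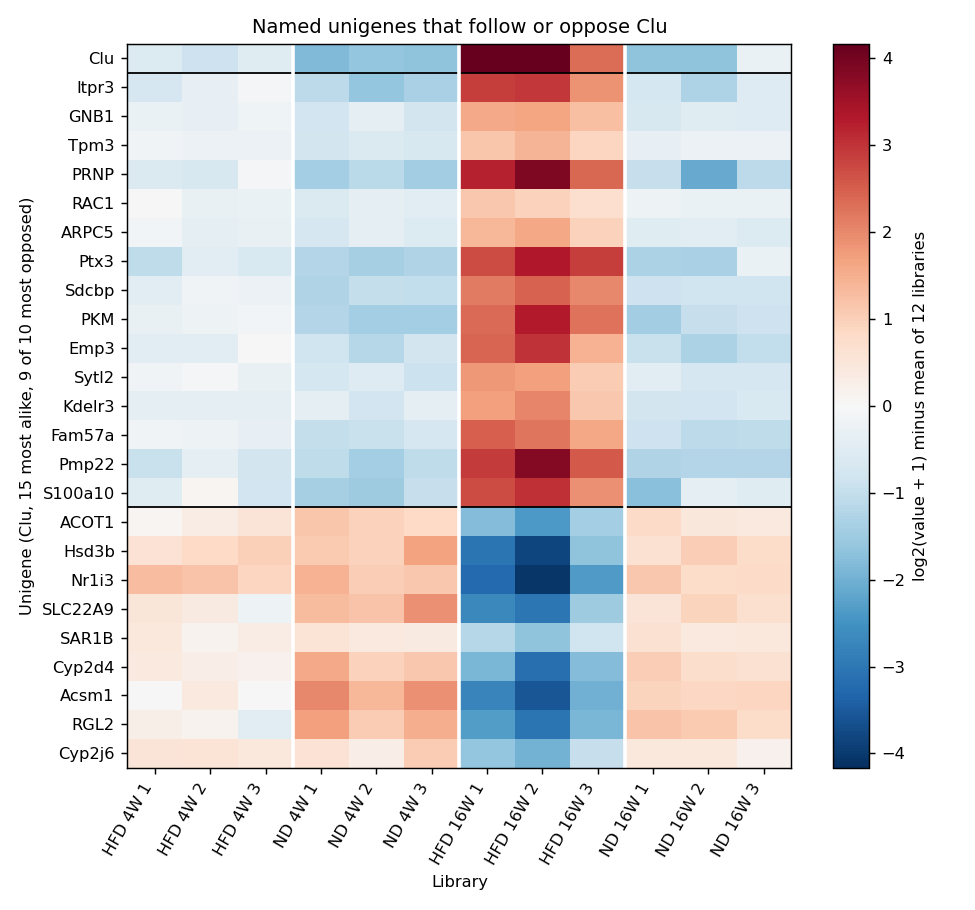
Colour gives log2(level + 1) minus the mean over the 12 libraries for Clu (top row), the 15 named unigenes most alike and 9 of the 10 most opposed (rows), in each library (columns, HFD before ND at each time). The HFD 16W columns carry the contrast: the most alike rows are high there by up to 4.55 over ND 16W, and the most opposed are low, with differences down to -4.11.

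To look past the group differences, the mean of each group was taken from the values, and the correlation with Clu was computed again over what was left, for 2110 named unigenes detected in all 12 libraries. The median was -0.04, and 17 had an absolute correlation of at least 0.8. Most of the spread of Clu that this uses lies in ND 16W library 3 and HFD 16W library 3. In HFD 16W library 3 it is a step from rank 1 to rank 2, whose size the normalization fixes. The genes named below were picked by this measure, so their order in these libraries is partly built into that choice. The most opposed was Cat, the peroxisomal enzyme catalase that breaks down hydrogen peroxide, at -0.965. Cat had levels of 249, 246 and 420 in HFD 16W and 731, 756 and 455 in ND 16W, so it was lowest in the ND 16W library where Clu was highest and highest in the HFD 16W library where Clu was lowest. At 4 weeks Cat had levels of 1031, 1073 and 991 in HFD and 1031, 1031 and 1189 in ND, and the groups overlapped. Its log2 difference was -1.09 at 16 weeks and -0.07 at 4 weeks.

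The other 7 most opposed were Engase, RNASE1, ERVK-9, Adra1b, Gdf2, L3hypdh and Tnfaip8l1, at -0.923 to -0.860. Adra1b, an adrenergic receptor of hepatocytes, had levels of 4.53, 3.24 and 9.88 in HFD 16W and 29.5, 20.9 and 13.9 in ND 16W. Gdf2, the liver-made ligand BMP9, had levels of 0.208, 0.0703 and 1.26 in HFD 16W and 4.95, 5.39 and 4.40 in ND 16W. Both had the lowest ND 16W level in library 3 and the highest HFD 16W level in library 3, in the reverse order of Clu. That order is again partly built into the choice of these genes, as it is for the most alike genes named next. Of the 8 most alike by this measure, at 0.840 to 0.771, 7 were Acin1, Tube1, TLE1, Chd1, Slc41a1, Pde7b and Plce1. Acin1, a nuclear protein of the exon junction complex, had levels of 34.2, 35.7 and 26.5 in HFD 16W and 18.4, 18.4 and 21.5 in ND 16W, lowest of its HFD group and highest of its ND group in library 3.

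**Figure D4:**
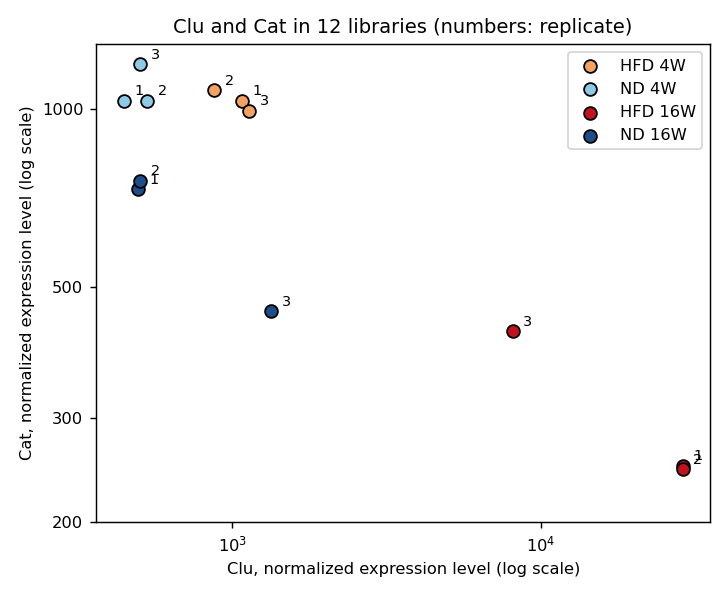
Level of Cat (y axis, log scale) against that of Clu (x axis, log scale) in the 12 libraries, coloured by group and numbered by replicate. The 6 libraries of 4 weeks lie between Cat levels of 991 and 1189. At 16 weeks the ND library numbered 3 (Clu 1335, Cat 455) is close to the HFD library numbered 3 (Clu 8090, Cat 420) in Cat, but not in Clu.

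Genes around clusterin were then counted in lists by role, each row tested with limma over all 9487 unigenes with Benjamini-Hochberg adjustment and called at an adjusted p under 0.05. At 16 weeks 15.3% of all unigenes were called higher and 19.9% lower in HFD, and at 4 weeks 4.89% were called higher and 7.22% lower. With a median-ratio rescaling the 4-week split was 597 higher and 505 lower, against 464 higher and 685 lower as deposited. Of the 3377 tested unigenes detected in all 12 libraries, as most called rows below were, 22.2% were called higher and 27% lower at 16 weeks, and 7.23% higher and 9.03% lower at 4 weeks. The diet difference was larger at 16 than at 4 weeks for 5.5% of all unigenes and more negative for 4.61%. These shares are the background for the counts that follow. A row is 1 unigene, and a gene can have several. Rows that no library but the HFD ones numbered 1 detected are counted, and they were not called.

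Of 21 receptor and uptake genes, 4 had a row and 4 rows were tested. At 16 weeks 2 rose and none fell, with a median log2 difference of 1.18. LRP1, the large endocytic receptor of hepatocytes and macrophages, had levels of 363, 464 and 338 in HFD 16W and 140, 125 and 168 in ND 16W. It rose by 1.42 on the log2 scale (SE 0.18, limma adjusted p 0.000132) without overlap of the groups. At 4 weeks LRP1 had levels of 185, 194 and 200 in HFD and 103, 129 and 116 in ND, a rise of 0.74 (SE 0.18, limma adjusted p 0.0195), which was no longer called without any 1 of HFD 4W library 2 or 3 or ND 4W library 1 or 3 (adjusted p up to 0.0788). Vldlr, the very low density lipoprotein receptor, had levels of 3.56, 4.48 and 2.79 in HFD 16W and 0.547, 0.541 and 0.527 in ND 16W. It rose by 1.57 (SE 0.28, limma adjusted p 0.00139), and its 4-week difference of -0.35 was not called (limma adjusted p 0.485). The difference between the times was 1.92 (SE 0.40, limma adjusted p 0.0126). Stab1, a scavenger receptor of sinusoidal endothelium, differed by 0.49 at 16 weeks in its more abundant row (SE 0.48, limma adjusted p 0.450).

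Of 23 chaperones and protease-trapping proteins other than Clu, mainly secreted ones, 10 had a row and 15 rows were tested. At 16 weeks 2 rose and 7 fell, with a median of -1.38, and at 4 weeks none was called. The 7 that fell were all rows of Mug1 and Mug2, the murinoglobulins that trap proteases in rodent plasma, with log2 differences of -1.94 to -4.30. Which copy each row stands for is uncertain, since these paralogs can share reads. The most abundant, a Mug1 row, had levels of 222, 130 and 226 in HFD 16W and 716, 1263 and 1189 in ND 16W (TRINITY_DN31697_c0_g1, limma adjusted p 0.00258). The smallest of the 7 falls (TRINITY_DN34615_c5_g1) was not called without HFD 16W library 1 or 2 (adjusted p 0.0780 and 0.0955).

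The 2 that rose were HSPB1 and Pcsk1n, an inhibitor of prohormone cleavage. HSPB1 is a small heat shock protein that holds unfolding proteins, mainly inside cells, so its rise is not that of a secreted chaperone. HSPB1 had levels of 145, 204 and 129 in HFD 16W and 14.9, 17.2 and 17.4 in ND 16W, a rise of 3.17 (SE 0.24, limma adjusted p 4.03e-06). Pcsk1n had levels of 9.81, 25.9 and 14.9 in HFD 16W and 7.78, 4.34 and 5.05 in ND 16W, a rise of 1.34 (SE 0.31, limma adjusted p 0.00614). Neither group pair overlapped. At 4 weeks HSPB1 differed by 0.77 (limma adjusted p 0.0622), and by 1.05 with a call (adjusted p 0.0112) without the HFD libraries numbered 1. Cryab, a relative of HSPB1, differed by 0.73 (limma adjusted p 0.257) and Serpina3n, an acute-phase protease inhibitor, by -0.19 (limma adjusted p 0.685) at 16 weeks.

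Of 33 complement genes, 12 had a row and 14 rows were tested. At 16 weeks none rose and 3 fell, with a median of 0.31, and at 4 weeks none was called. The 3 that fell were all rows of C8b, a chain of the membrane attack complex that clusterin binds, with differences of -2.23, -2.24 and -2.30. The most abundant of them had levels of 9.72, 4.06 and 19.7 in HFD 16W and 31.4, 57.9 and 60.8 in ND 16W (TRINITY_DN34210_c0_g4, limma adjusted p 0.00222). C9, which forms the pore itself, had levels of 139, 50.2 and 259 in HFD 16W and 47.1, 101 and 204 in ND 16W, and the groups overlapped (0.30, limma adjusted p 0.703). At 4 weeks C9 had levels of 267, 249 and 259 in HFD and 79.1, 88.7 and 80.7 in ND without overlap, and its difference of 1.63 (SE 0.55) was not called (limma adjusted p 0.0793). A row of C3, the protein on which the complement pathways meet, was at 0, 2.40 and 2.40 in HFD 16W libraries and was not detected in ND 16W libraries. It was called only when the HFD libraries numbered 1, in which it was not detected, were left out, so nothing is read from that call.

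Of 24 lipoprotein genes, 8 had a row and 9 rows were tested. At 16 weeks none was called, with a median of -0.55, and at 4 weeks none rose and 3 fell. The abundant row of Apob, the scaffold of VLDL and LDL particles, had levels of 194, 59.0 and 178 in HFD 16W and 103, 134 and 134 in ND 16W (0.05, limma adjusted p 0.935). Apoa4, an apolipoprotein of triglyceride-rich particles, fell at 4 weeks, with levels of 15.4, 13.0 and 5.83 in HFD 4W and 95.3, 39.2 and 27.1 in ND 4W (-2.04, limma adjusted p 0.0247). That call was lost without HFD 4W library 3 or ND 4W library 1 (adjusted p 0.0978 and 0.0893). The other 2 rows that fell at 4 weeks, of APOE and APOC1, were detected in 6 libraries each, with levels of 0 in all HFD 4W libraries. Without the HFD libraries numbered 1, the scarcer Apob row was called lower at 16 weeks (-1.39, limma adjusted p 0.0103).

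Of 21 genes for partners and processing of clusterin inside the cell, 9 had a row and 9 rows were tested. At 16 weeks 2 rose and 2 fell, with a median of 0.38. Hsp90aa1, a cytosolic chaperone, had levels of 85.4, 117 and 90.7 in HFD 16W and 40.5, 37.8 and 38.4 in ND 16W (1.29, limma adjusted p 0.00123). Calr, the calcium-binding chaperone of the endoplasmic reticulum that folds glycoproteins, had levels of 358, 335 and 328 in HFD 16W and 130, 147 and 178 in ND 16W (1.17, limma adjusted p 0.00138). Its partner Canx differed by 0.38 (limma adjusted p 0.218). Map1lc3b, a protein of autophagosome membranes, fell by 2.09 on the log2 scale (limma adjusted p 0.00160) and was detected in 5 libraries. Bad, a cell death protein of the BCL2 family, fell by 0.61 at 16 weeks (limma adjusted p 0.0384), a call lost under 8 of 17 alternatives, among them each library of the 16-week groups left out apart from HFD 16W library 2. At 4 weeks FURIN, a protease of the secretory path, rose by 1.03 (limma adjusted p 0.0139) and Bad fell by 0.93 (limma adjusted p 0.0129). The FURIN call was lost without HFD 4W library 3 or ND 4W library 3 (adjusted p 0.0608 and 0.0580), and the Bad call without ND 4W library 3 (adjusted p 0.0553). Without the HFD libraries numbered 1 the 16-week counts were 3 higher and 1 lower. The row added was PDIA3, which was not detected in the libraries left out or in any ND library.

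Of 27 genes for factors reported to act on the Clu promoter, 8 had a row and 5 rows were tested. At 16 weeks 4 rose and none fell, with a median of 0.86, and at 4 weeks 2 rose. Nfkb1, a subunit of NF-kB, had levels of 10.6, 11.1 and 11.5 in HFD 16W and 3.31, 3.20 and 3.64 in ND 16W (1.46, limma adjusted p 6.43e-05). Its 4-week levels were 7.83, 6.80 and 7.18 in HFD and 1.56, 2.06 and 2.50 in ND (1.45, limma adjusted p 0.000294). The 16-week difference minus the 4-week one was 0.01 (SE 0.23, limma adjusted p 0.991). JUN, a subunit of AP-1, had levels of 47.5, 65.4 and 56.5 in HFD 16W and 21.4, 22.1 and 17.1 in ND 16W (1.43, limma adjusted p 0.000494), and it rose by 1.07 at 4 weeks (limma adjusted p 0.00858). Hsf1, the heat shock factor, rose by 0.86 at 16 weeks (limma adjusted p 0.0114), and lay at the threshold without HFD 16W library 2 (adjusted p 0.05005). Tfeb, a regulator of lysosome genes, rose by 0.68 (limma adjusted p 0.0290), a call lost without HFD 16W library 2 or 3 or ND 16W library 2 or 3 (adjusted p 0.0832 to 0.111). HIF1A differed by 0.07 (limma adjusted p 0.765). Without the HFD libraries numbered 1, a YBX1 row and the Fosb row also passed the filter on low values and were called higher at 16 weeks, YBX1 at 4 weeks too. Both were undetected in HFD 16W library 1 and in every ND library, so nothing is read from these calls.

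Of 30 liver injury and repair genes that move with Clu in other settings, 7 had a row and 7 rows were tested. At 16 weeks 4 rose and 1 fell, with a median of 2.29, and at 4 weeks 2 rose and 1 fell. Gpnmb had levels of 1522, 1522 and 1263 in HFD 16W and 1.48, 8.73 and 9.80 in ND 16W (7.81, limma adjusted p 8.19e-07). At 4 weeks Gpnmb had levels of 13.4, 18.0 and 30.2 in HFD and 2.36, 1.28 and 1.81 in ND (2.88, limma adjusted p 0.00243). Cd63, a tetraspanin of lysosomes and exosomes, had levels of 1189, 991 and 875 in HFD 16W and 89.6, 71.8 and 95.9 in ND 16W in its abundant row (3.55, limma adjusted p 2.83e-07). A scarcer Cd63 row, detected in 8 libraries, went the other way (-2.92, limma adjusted p 0.000727). S100a10 rose by 3.44 (limma adjusted p 5.19e-05), and its partner Anxa2 by 0.99 (limma adjusted p 0.0361), a call lost without any 1 of the ND 16W libraries (adjusted p 0.0642 to 0.0840). At 4 weeks the Cd63 row rose by 0.78 (limma adjusted p 0.0178), a call lost without HFD 4W library 2, ND 4W library 2 or ND 4W library 3 (adjusted p 0.0502 to 0.0715). The fall at 4 weeks was that of an LGALS3 row detected in 5 libraries.

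**Figure D5:**
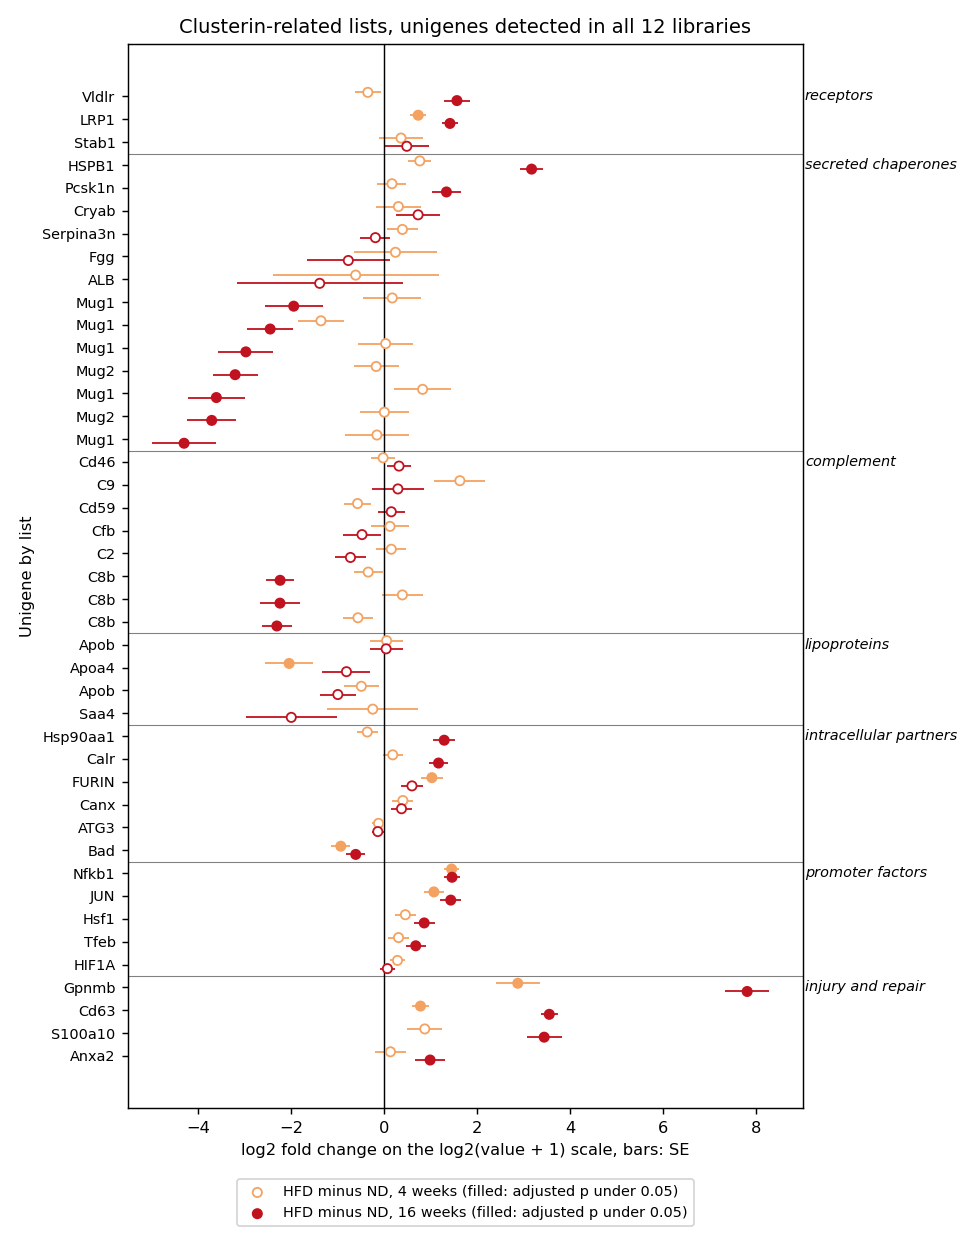
Log2 difference of HFD minus ND with its SE (x axis, log2(level + 1) scale) at 4 and 16 weeks for 43 rows of the 7 clusterin-related lists that were detected in all 12 libraries, filled where the limma adjusted p was under 0.05. HSPB1, LRP1, Vldlr and Gpnmb lie right of 0 at 16 weeks, and the rows of Mug1, Mug2 and C8b lie left of it.

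Markers of liver cell types were counted in the same way, since cells other than hepatocytes can make clusterin. Of the stellate cell and myofibroblast list (6 of 17 genes with a row), 6 of 6 tested rows rose at 16 weeks, 5 of 6 without the HFD libraries numbered 1. The call lost there, that of Reln, was also lost without HFD 16W library 1 or 2 or ND 16W library 1 or 3 (limma adjusted p 0.0631 to 0.0888). The summed level of the 6 rows was 713 to 1587 in HFD 16W and 27.8 to 40.2 in ND 16W. Col1a1 had levels of 226, 572 and 263 in HFD 16W and 1.14, 0.591 and 0.626 in ND 16W, and Des had 391, 646 and 312 in HFD 16W and 7.25, 9.89 and 9.19 in ND 16W. Of the macrophage list (7 of 19 genes with a row), 4 of 5 tested rows rose and 1 fell, with summed levels of 1514 to 1903 in HFD 16W and 44.0 to 58.6 in ND 16W. Gpnmb, with levels of 1522, 1522 and 1263, made up most of the HFD 16W sums, and it is also counted in the injury and repair list. Cd68, a lysosomal protein of macrophages, had levels of 168, 318 and 200 in HFD 16W and 11.7, 11.6 and 10.7 in ND 16W. The row that fell was Cd5l, secreted by resident macrophages, with levels of 0.0356, 0.141 and 1.89 in HFD 16W and 22.2, 26.7 and 11.4 in ND 16W. At 4 weeks Cd5l went the other way, with levels of 54.1, 62.8 and 38.2 in HFD and 9.10, 0.548 and 6.83 in ND.

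Of the bile duct list (2 of 19 genes with a row), 1 of 2 tested rows rose at 16 weeks: Anxa4, an annexin rich in bile duct cells, had levels of 440, 292 and 349 in HFD 16W and 33.2, 50.0 and 49.2 in ND 16W (3.00, limma adjusted p 3.17e-06). The keratins that define bile duct cells were on this list, and no value of theirs is given here. Of the hepatocyte list (6 of 15 genes with a row), 3 of 7 tested rows fell (Hpd, Ass1 and Cps1, enzymes of tyrosine breakdown and the urea cycle, the Cps1 call being lost without HFD 16W library 2 or ND 16W library 1 or 2) and none rose, with summed levels, mostly of ALB, of 6765 to 31380 in HFD 16W and 34697 to 39151 in ND 16W. ALB held ranks 2, 3 and 1 in HFD 16W libraries 1, 2 and 3, with the fixed levels of 8090, 5760 and 28764. The low sums of HFD 16W libraries 1 and 2 are thus mostly a step of ALB below rank 1, which Clu held there. Of the smooth muscle list (2 of 7 genes with a row), the 1 tested row, ACTG2, rose, with levels of 2138, 1655 and 1862 in HFD 16W and 237, 170 and 139 in ND 16W. Even its ND 16W levels lay above the summed stellate rows there (27.8 to 40.2). The row is known by its given name alone, and which actin it stands for was not tested. Of the endothelial list 1 of 3 tested rows rose at 16 weeks (Emcn), a call lost under the replicate block (adjusted p 0.0526) and without HFD 16W library 1 or 2, ND 16W library 2 or 3 or the HFD libraries numbered 1 (0.0756 to 0.128). The 1 tested lymphoid row, Cd4, was called higher only without the HFD libraries numbered 1. The 1 tested red cell row, Hba, rose, a call lost without HFD 16W library 1 or 2, any 1 ND 16W library or the HFD libraries numbered 1 (adjusted p 0.0770 to 0.128).

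At 4 weeks, when Clu differed by 1.05, 3 of 6 stellate rows, 4 of 5 macrophage rows, 1 of 2 bile duct rows and 0 of 7 hepatocyte rows were called in HFD, each of them higher. They were Des, Col1a1 and the actin-binding protein TAGLN, then Cd68, Gpnmb, Cd5l and the integrin Itgax, and Anxa4. The TAGLN call was lost under 10 of 17 alternatives (limma adjusted p 0.0484), and without the HFD libraries numbered 1 the stellate count was 2. The summed levels were 78.6 to 96.6 in HFD 4W and 34.9 to 36.9 in ND 4W for stellate rows, and 125 to 151 in HFD 4W and 20.6 to 29.2 in ND 4W for macrophage rows. Apart from Cd5l, these marker levels moved with Clu across the groups, and their part in its level was not tested. Cd5l, which is part of the macrophage sums, was higher in HFD than in ND at 4 weeks and lower at 16 weeks. In ND 16W library 3, where Clu was at 1335, stellate rows summed to 36.2 and macrophage rows to 44.0, against 27.8 and 40.2 for stellate rows and 44.6 and 58.6 for macrophage rows in ND 16W libraries 1 and 2. In HFD 16W libraries 1, 2 and 3, where Clu had ranks 1, 1 and 2, stellate rows summed to 725, 1587 and 713 and macrophage rows to 1746, 1903 and 1514. Gpnmb made up most of these macrophage sums.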

How the data were processed

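Poly(A) RNA of gerbil liver was sequenced on an Illumina HiSeq 4000 with reads of 150 bases from RNA of an integrity number above 7, and reads were assembled with Trinity 2.4.0, the longest transcript of each cluster being kept as unigene, per the labels' protocols. The submitters' processing notes also list Salmon and edgeR, without a version and without saying what each was used for. The deposited values are a signal, normalized expression levels made by the authors; that they are quantile-normalized follows from the values, since sorted libraries differed by at most 0.01 of the level over their top 3000 unigenes. Since depth is unknown, no counting error is given.

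From there, log2(level + 1) was modelled with limma 3.58.1 in R 4.3.3 (4 group means, variance trend) over the unigenes whose mean level reached 1, and calls were made at a Benjamini-Hochberg adjusted p under 0.05. The fit was tested on simulated data. Fold changes on this scale understate those of low unigenes. The members and lists were chosen with earlier results of these data known. Genes were named by rule: the 15 most alike and 10 most opposed to Clu, 8 of each within groups, the 10 highest mean ranks of each 16-week group, and members of the lists that were called at 16 weeks or define the list; C9, Canx, FURIN and others not called, and some called only at 4 weeks, are named as defining members or as exceptions seen afterwards. Same-numbered HFD 16W and HFD 4W libraries had correlated deviations (0.397, 0.180 and 0.117 for numbers 1, 2 and 3), a pattern in the data, as the labels name no shared source. Only number 1 stood clearly apart, with correlations of -0.276 to -0.181 with numbers 2 and 3. HFD 16W library 3 had 0.132 with HFD 4W library 2, above its same-numbered value. HFD 16W library 2 had 0.0882 with HFD 4W library 3. No other groups showed such a pattern. Alternatives changed the pseudocount to 0.1, dropped the filter, rescaled by median ratios, used ranks, added a replicate block, and left out each library or both HFD libraries numbered 1; chosen after seeing the data were the comparison of Clu with the unigenes of ranks 21 to 100 and the list counts without the HFD libraries numbered 1. A few genes are not reported here. No sequence is shown.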

Additional observations from a re-analysis of the deposited data

Results flagged for a closer look

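The diet difference at 16 weeks minus that at 4 weeks was tested in the same limma fit, in which 5.5% of all unigenes were called for a larger and 4.61% for a more negative difference. It passed an adjusted p of 0.05 for the following genes named above, given as log2 differences, and genes chosen by likeness to Clu were not considered on that ground. Larger at 16 weeks were Gpnmb by 4.93 (SE 0.67, limma adjusted p 0.00206), Col1a1 by 4.18, Des by 3.45, Cd63 by 2.77, Itgax by 2.66, S100a10 by 2.57, HSPB1 by 2.40, TAGLN by 2.01, Cd68 by 1.98, Vldlr by 1.92, Anxa4 by 1.89, Hsp90aa1 by 1.65 and ACTG2 by 1.35. LRP1 was not called in this contrast (0.68, limma adjusted p 0.117).

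More negative at 16 weeks were the 2 Mug2 rows by -3.03 and -3.71, 3 Mug1 rows by -3.01, -4.15 and -4.44, the 3 C8b rows by -1.89, -2.63 and -1.74, Hpd by -2.58 and Map1lc3b by -2.35. Cd5l had the largest of these values, -7.11 (SE 0.89, limma adjusted p 0.00142), with a rise in HFD at 4 weeks and a fall at 16 weeks, each without overlap between the groups.

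Without the HFD libraries numbered 1 the difference between times was no longer called for S100a10, ACTG2, 1 Mug2 row, 2 Mug1 rows, the 3 C8b rows and Hpd, with adjusted p of 0.0565 to 0.119. Over all alternatives, the calls lost most often were those of a Mug1 row (12 of 17 alternatives), a C8b row (10 of 17), ACTG2 (9 of 17), Hpd (6 of 17) and TAGLN (6 of 17), and the cause was not tested.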

How the results depend on the processing

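Clu stood higher in HFD than in ND at both times under every alternative run. Its 4-week difference of 1.05 became 1.25 with median-ratio rescaling and 1.28 on ranks, and ran between 0.98 and 1.17 with each library left out in turn. The ranges with a library left out were 4.46 to 5.37 for the 16-week difference, 3.90 to 4.81 for time on HFD and 0.03 to 0.74 for time on ND. The last was 0.03 without ND 16W library 3. Median-ratio rescaling moved the median of all unigenes at 4 weeks to 0.10, against -0.03 as deposited, and at 16 weeks to 0.01, against -0.12. Of the 15 genes most like Clu, 1 stayed by Spearman's rho, 2 over the 6 HFD libraries, 1 without HFD 16W, and 8 to 14 with a library left out (8 without HFD 16W library 1, 9 without HFD 16W library 3).

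With a library left out, called unigenes ran between 710 and 1194 at 4 weeks (1149 with all libraries, 710 without HFD 4W library 3 and 747 without ND 4W library 1), between 2463 and 3409 at 16 weeks (3340), between 590 and 940 for the difference of the diet contrasts (959, 590 without HFD 16W library 2) and between 981 and 1693 for time on HFD (1610, 981 without HFD 16W library 2). Without the HFD libraries numbered 1, the counts of the last 2 were 455 and 931. For time on ND the count of 36 became 56 with a pseudocount of 0.1, 14 without the filter, 12 without the HFD libraries numbered 1 and 0 to 233 with a library left out. It was 0 without ND 16W library 2, where 1262 unigenes had an unadjusted limma p under 0.05, and 233 without ND 4W library 2. Its split was 20 higher and 16 lower, and 23 and 11 with median-ratio rescaling.

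The replicate numbers went with likeness only between HFD 16W and HFD 4W, and there clearly only for number 1. For time on HFD the replicate block gave 1509 calls, against 1610 without it. With the block the other counts were 1025 at 4 weeks, 3262 at 16 weeks, 816 for the difference of contrasts and 19 for time on ND, the last being the only count that the block moved by over 1.5 times. Same-numbered libraries of the other comparisons had correlations of -0.02 to 0.04. The causes of these changes were not tested. Depth is unknown, and 3 libraries in each group limit the precision.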
